A study of Rattus norvegicus with 12 samples.

Results

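The genes described here are 9 genes of taurine, methionine and cysteine metabolism in rat liver, namely Csad, Cdo1, Cbs, Cth, Bhmt, Gnmt, Mat1a, Ahcy and Slc6a6. They were chosen by name, with earlier results of these data known. Every probe set that the array's annotation assigns to 1 of these symbols alone was taken. This gave 10 probe sets of 31042, and the 9 genes stand among 14217 genes with such a probe set. Liver RNA of 12 rats was measured on 1-colour Affymetrix arrays, 1 array per animal, with 3 animals in each group. Germ-free rats of the Sprague Dawley strain (animals 1, 3 and 4) were set against conventional rats of that strain (animals 6, 7 and 8). Han Wistar rats that drank water with both streptomycin and penicillin for 8 days (animals 13, 14 and 15) were set against Han Wistar rats given no antibiotic (animals 1, 2 and 3). The labels give 4 mg/ml for streptomycin and 2 mg/ml for penicillin without settling whether the stock or the water is meant. They give no sex, age, diet or time of tissue collection, and effects of these cannot be told apart from the germ-free state or the treatment. They also do not say how germ-free status was checked, and they do not say that the antibiotic removed the gut bacteria.

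As background, methionine is activated in the liver to S-adenosylmethionine, the methyl donor of the cell, and is remade from homocysteine. Homocysteine that is not remethylated enters transsulphuration, which makes cysteine, and cysteine is either built into glutathione or oxidised towards taurine and sulphate. Taurine is coupled to bile acids in the hepatocyte, and gut bacteria split these conjugates again, which links the pathway to the microbiota.

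All values are linear signal intensities of the MAS5 software, and 10 of 10 member probe sets lay above the filter used for testing, a mean signal of 19.67. Each gene was represented by its brightest probe set. Fold changes are differences of log2(signal + 16) with their standard errors (SE), from limma, a linear model with a shared variance estimate fitted to 9300 genes over 12 arrays. A gene passed when its p-value, adjusted by Benjamini-Hochberg over the 9300 genes, was under 0.05. The signals of different probe sets were not compared with each other.

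In germ-free livers, Csad fell and Bhmt rose, and the other 7 genes did not pass. These 2 of 9 genes stand beside 13.2% of all genes that passed in that comparison, so with 9 genes this count is not a result about the pathway as a whole. At an unadjusted p under 0.05 there were 4 of 9, beside 28.1% of all genes. In antibiotic-treated livers 0 of 9 passed limma's test, beside 0.0215% of all genes (2 of 9300). At an unadjusted p under 0.05 there were 6 of 9, beside 10.4% of all genes. No member passed the test of the difference between the comparisons, in which 5.94% of all genes did; 2 of 9 had an unadjusted p under 0.05 (Csad and Gnmt), beside 21.3% of all genes.

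**Figure D1:**
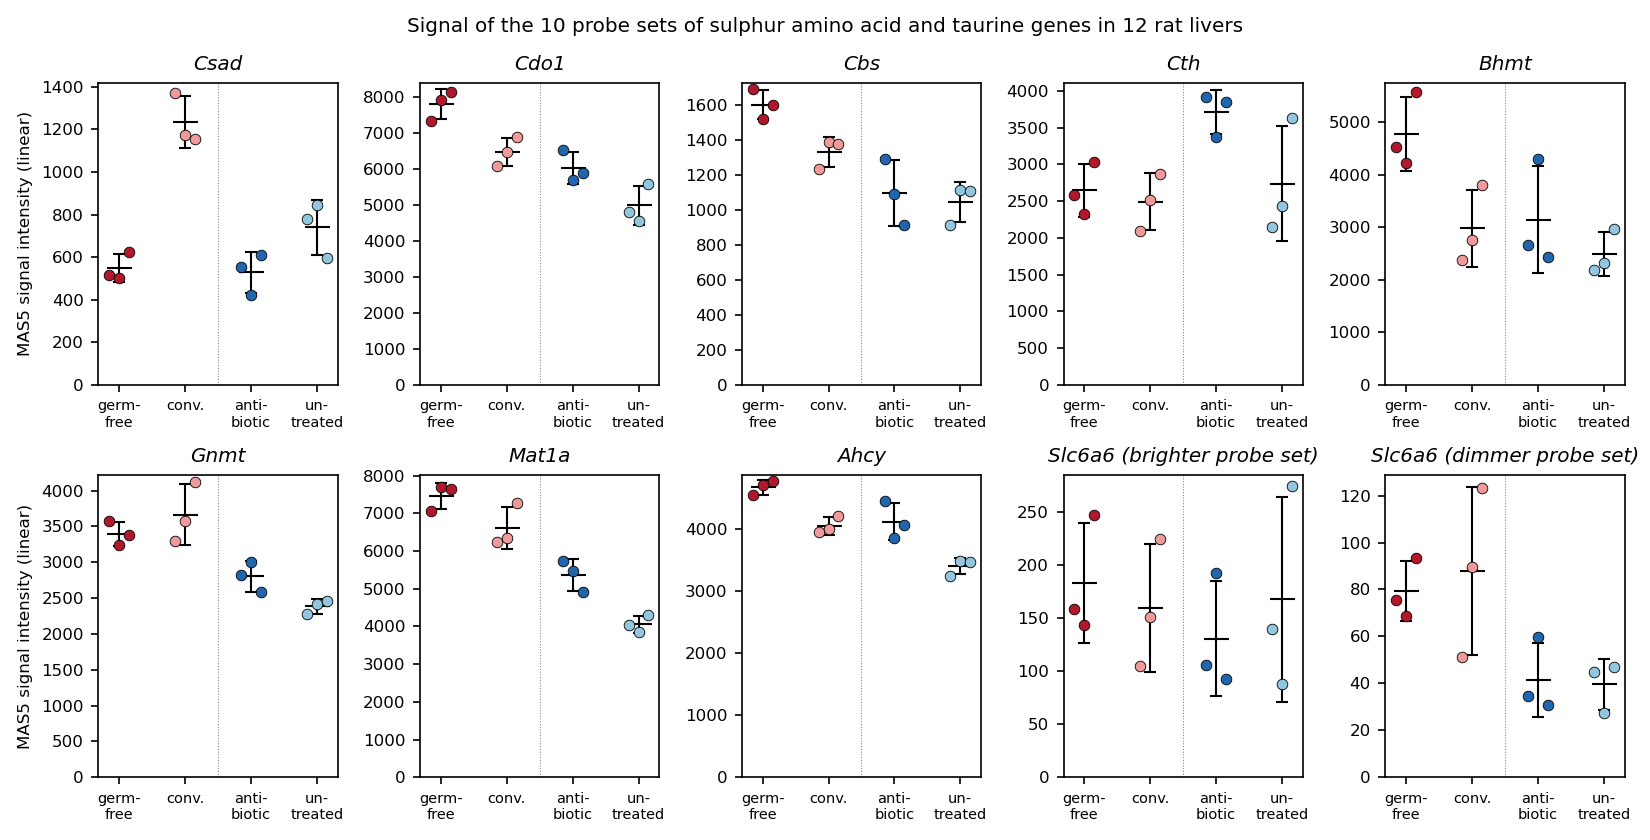
Signal intensity (vertical axis, linear, from 0) of each of the 10 probe sets in every liver. Points are animals and bars are the mean with 1 SD (n = 3 per group), and a dotted line parts the Sprague Dawley groups on the left from the Han Wistar groups on the right. Csad is lower in all 3 germ-free animals than in any conventional animal, while Slc6a6 spreads widely within each group.

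Csad encodes cysteine sulfinic acid decarboxylase, which makes hypotaurine, the precursor of taurine. Its signal was 517.6, 503.7 and 625.6 in germ-free livers, against 1373.4, 1176.0 and 1154.8 in conventional livers. All 3 germ-free animals lay below every conventional animal. The means were 549 ± 66.7 and 1235 ± 121 (SD, n = 3 each), a log2 fold change of -1.15 ± 0.15 SE, or 0.451-fold (adjusted p = 0.00032 by limma). It passed in 25 of 25 alternative analyses, which include leaving out each animal in turn, with log2 values from -1.26 to -1.07. In antibiotic-treated livers the Csad signal was 554.2, 422.5 and 609.0, against 777.5, 846.0 and 594.5 in untreated livers. Here the groups overlapped, since untreated animal 3 lay below antibiotic-treated animal 15. The log2 fold change was -0.47 ± 0.15 (95% interval -0.80 to -0.14, adjusted p = 0.281), which did not pass. The difference between the comparisons was -0.68 ± 0.22 (95% interval -1.14 to -0.21, adjusted p = 0.0847), and it passed without antibiotic-treated animal 14 (adjusted p = 0.041, log2 -0.82). In 23 of 24 alternatives the difference did not pass (adjusted p by limma up to 0.239). The group means of Csad ran from conventional through untreated and germ-free to antibiotic-treated livers. Of the neighbours in that order, only conventional and untreated livers did not overlap, and strain and experiment cannot be told apart between them.

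Cdo1 encodes cysteine dioxygenase, which makes the substrate of that decarboxylase. Its signal was 7328.7, 7903.1 and 8144.7 in germ-free livers, against 6091.0, 6454.5 and 6877.7 in conventional livers. The groups did not overlap, but the log2 fold change of 0.27 ± 0.10 did not pass (adjusted p = 0.0853), and it passed only with array weights (0.045). In antibiotic-treated livers the signal was 6535.9, 5693.3 and 5871.1, against 4802.2, 4558.2 and 5588.8 in untreated livers. Again every treated animal lay above every control animal, with a log2 fold change of 0.28 ± 0.10 (adjusted p = 0.328). After quantile normalization, which gives all arrays the same distribution of signals, these values were 0.03 and -0.08. The dioxygenase and the decarboxylase thus lay on opposite sides of 0 in both comparisons on the deposited scale, and on the same side in the antibiotic comparison after quantile normalization.

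Slc6a6, the taurine transporter of the plasma membrane, was read by a brighter and a dimmer probe set. The brighter one gave 158.4, 144.0 and 248.0 in germ-free livers, against 104.7, 151.3 and 224.5 in conventional livers. It gave 105.8, 193.0 and 93.1 in antibiotic-treated livers, against 139.9, 88.4 and 275.2 in untreated livers. The groups overlapped in both comparisons, and the SD was 30.7% to 57.5% of the mean in the 4 groups. The log2 fold changes were 0.20 (95% interval -0.56 to 0.96) and -0.26 (-1.01 to 0.50), wide intervals that both span 0. The dimmer probe set, tested in a fit of every probe set, gave -0.07 ± 0.25 and 0.03 ± 0.25, opposite in sign to the brighter one in each comparison. Without germ-free animal 4 or conventional animal 6 the first value of the brighter probe set was -0.02 or -0.04, and without untreated animal 3 the second was 0.14.

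Among the members that belong to the methionine cycle, Bhmt was the one that passed in germ-free livers. Mat2a, a methionine adenosyltransferase gene outside the members, also passed there and fell (log2 -0.82, adjusted p = 0.00284 by limma), as described below. Bhmt encodes betaine-homocysteine methyltransferase, which remakes methionine with a methyl group from betaine. Its signal was 4515.2, 4224.4 and 5576.5 in germ-free livers, against 2378.4, 2755.1 and 3794.2 in conventional livers. Every germ-free animal lay above every conventional animal. The means were 4772 ± 712 and 2976 ± 733 (SD, n = 3 each), a log2 fold change of 0.70 ± 0.21 or 1.62-fold (adjusted p = 0.043 by limma). The call stood just under the threshold and was lost in 13 of 25 alternatives, although the direction was the same in all of them (log2 0.55 to 0.88). The adjusted p was 0.0669, 0.0722 or 0.143 when germ-free animal 1, 3 or 4 was left out. The call also ended without conventional animal 6 (0.14) or 7 (0.112), and without untreated animal 1 (0.0504) or 2 (0.056). Quantile normalization (0.0705) and the actin ratio described below as a covariate (0.131) ended it as well. In antibiotic-treated livers Bhmt gave 2666.2, 4304.9 and 2438.4, against 2186.2, 2311.1 and 2969.2 in untreated livers. These groups overlapped, antibiotic-treated animal 14 stood highest, and the log2 fold change was 0.30 ± 0.21 (adjusted p = 0.673). Without animal 14 it was 0.048, without antibiotic-treated animal 15 it was 0.46, and after quantile normalization 0.17.

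The promoters of Csad and Bhmt are shown because these are the members that passed, in opposite directions. Each run is the 250 bases before the start that RefSeq's promoter table uses for the gene in the GRCr8 build, 5′ to 3′ on the gene's own strand, at chr7:135215582-135215831 for Csad and chr2:26614430-26614679 for Bhmt, both on the minus strand. The Bhmt window ends at the edge of the annotated gene (chr2:26594852-26614429), whereas the Csad window lies within the annotated gene (chr7:135187175-135216495), whose outermost start is further upstream. Capitals mark matches, on either strand, to the TATA box (spelled TATAAA), the CCAAT box, the GC box (spelled GGGCGG), an E-box (spelled CACGTG), a half-site of nuclear receptors (spelled AGGTCA) or an amino acid response element (spelled TGATGNAAT).
Csad: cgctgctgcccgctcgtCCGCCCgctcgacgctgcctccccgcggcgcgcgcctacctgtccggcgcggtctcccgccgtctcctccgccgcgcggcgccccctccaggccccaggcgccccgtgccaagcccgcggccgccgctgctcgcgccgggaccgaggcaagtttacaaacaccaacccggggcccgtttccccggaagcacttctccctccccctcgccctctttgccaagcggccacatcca
Bhmt: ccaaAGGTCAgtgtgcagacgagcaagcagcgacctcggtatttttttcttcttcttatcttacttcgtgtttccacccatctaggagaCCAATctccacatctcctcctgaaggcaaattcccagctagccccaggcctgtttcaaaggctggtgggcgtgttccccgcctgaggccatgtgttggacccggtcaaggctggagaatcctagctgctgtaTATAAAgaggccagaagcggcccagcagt
The Csad window had a GC content of 76.0% and held 1 GC box and no match to the other motifs. The Bhmt window had a GC content of 53.6%, near the median of 51.2% over 33469 RefSeq promoters. It held a TATA box that begins 29 bases before that start, 1 CCAAT box and 1 nuclear receptor half-site. Over the same windows of all 33469 promoters, 12.9% held the TATA letters, 34.0% the CCAAT box, 30.5% the GC box, 5.59% the E-box, 14.1% the half-site and 0.944% the amino acid response letters. No occurrences of these motifs overlap in the windows shown. Of the 9 genes, 8 had a promoter among those 33469. Slc6a6 also held a TATA match, which begins 79 bases before the start that the promoter table uses. Its window (chr4:125752252-125752501) runs into the annotated gene, whose outermost start is at chr4:125752340, and this match lies within the gene. The Gnmt window also runs into its annotated gene. The GC box was held by 6 of the 8 (Csad, Cbs, Cth, Gnmt, Ahcy and Slc6a6) and the CCAAT box by 4 (Cbs, Cth, Bhmt and Gnmt). The half-site was held by 4 (Bhmt, Gnmt, Ahcy and Slc6a6), the E-box by 1 (Cth) and the amino acid response letters by 0. A match is a description of these letters only, since no binding was measured.

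Mat1a encodes the liver form of methionine adenosyltransferase, which makes S-adenosylmethionine. Its signal was 7069.5, 7705.5 and 7640.1 in germ-free livers, against 6249.2, 6348.7 and 7267.5 in conventional livers. Germ-free animal 1 lay below conventional animal 8, and the log2 fold change was 0.18 ± 0.09 (adjusted p = 0.234), or -0.06 after quantile normalization. In antibiotic-treated livers it was 5735.3, 5482.6 and 4904.2, against 4038.3, 3849.9 and 4296.1 in untreated livers. Every treated animal lay above every control animal, and Mat1a had the smallest p of the 9 genes in this comparison, ranking 36 of 9300. Its log2 fold change of 0.40 ± 0.09 did not pass (adjusted p = 0.173), and it was 0.12 after quantile normalization.

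Ahcy encodes adenosylhomocysteinase, which splits the product of methylation to homocysteine. Its signal was 4547.3, 4712.3 and 4779.3 in germ-free livers, against 3949.0, 4003.1 and 4211.7 in conventional livers. In antibiotic-treated livers it was 4455.7, 3852.8 and 4069.4, against 3251.7, 3483.9 and 3479.1 in untreated livers. Neither pair of groups overlapped, with log2 fold changes of 0.21 ± 0.08 (adjusted p = 0.113) and 0.27 ± 0.08 (adjusted p = 0.25). After quantile normalization these were 0.14 and 0.05. Gnmt encodes glycine N-methyltransferase, which uses up S-adenosylmethionine. It was 3571.4, 3241.7 and 3376.4 in germ-free livers, against 3298.9, 3571.5 and 4126.1 in conventional livers. These groups overlapped (log2 -0.10 ± 0.10, adjusted p = 0.524), and the value ran from -0.18 without conventional animal 6 to -0.016 without conventional animal 8. In antibiotic-treated livers it was 2818.4, 3009.0 and 2580.2, against 2272.5, 2419.5 and 2459.5 in untreated livers. There every treated animal lay above every control animal (log2 0.23 ± 0.10, adjusted p = 0.441; 0.09 after quantile normalization). The test of the difference gave -0.33 ± 0.14 for Gnmt, which did not pass (adjusted p = 0.181).

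Cbs and Cth encode cystathionine beta-synthase and cystathionine gamma-lyase, the enzymes of transsulphuration. Cbs was 1688.9, 1519.8 and 1596.6 in germ-free livers, against 1233.0, 1389.1 and 1374.1 in conventional livers. These groups did not overlap, and the log2 fold change was 0.26 ± 0.12 (adjusted p = 0.18), or 0.30 after quantile normalization. In antibiotic-treated livers Cbs was 1289.0, 1088.3 and 912.6, against 911.0, 1112.7 and 1106.5 in untreated livers, which overlapped (log2 0.06 ± 0.12; adjusted p = 0.92). Cth was 2578.5, 2327.3 and 3032.7 in germ-free livers, against 2099.1, 2521.7 and 2864.0 in conventional livers, with a log2 fold change of 0.09 ± 0.17. In antibiotic-treated livers Cth was 3921.5, 3372.6 and 3851.2, against 2152.9, 2434.1 and 3630.7 in untreated livers. Untreated animal 3 lay above antibiotic-treated animal 14 there, and the log2 fold change was 0.47 ± 0.17 (95% interval 0.10 to 0.84, adjusted p = 0.356), or 0.30 after quantile normalization.

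**Figure D2:**
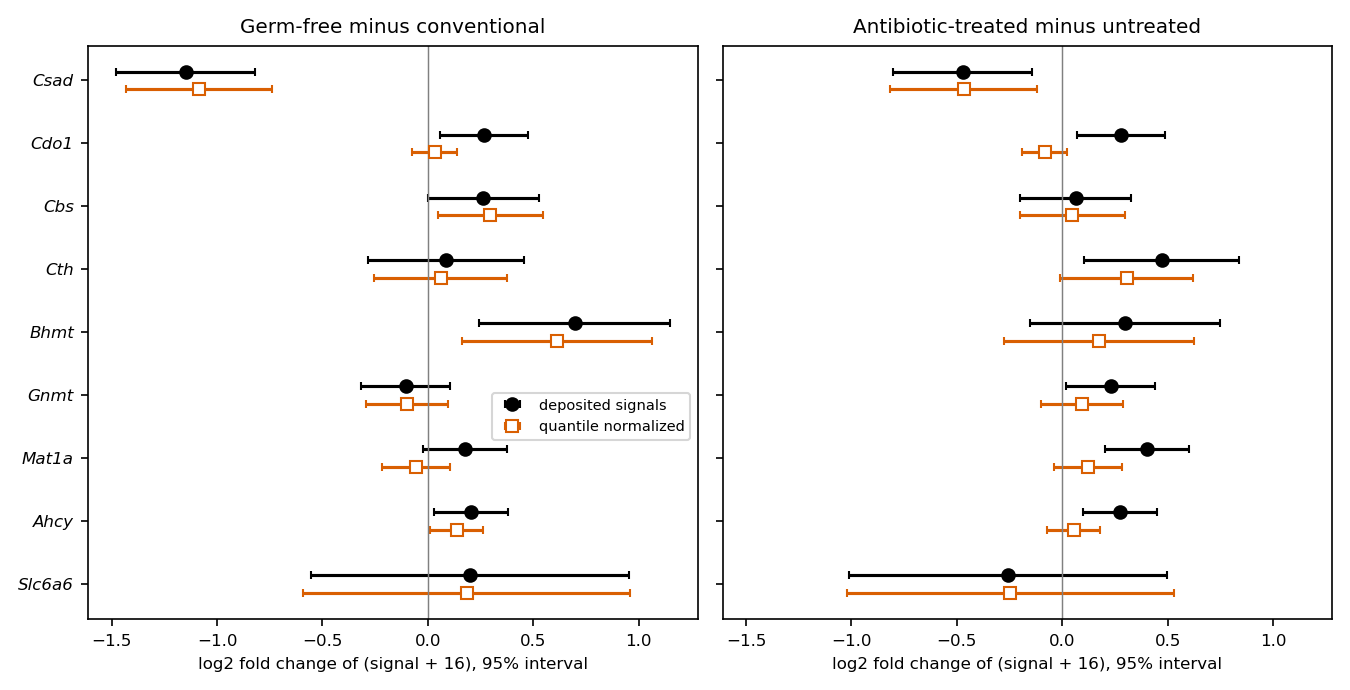
Log2 fold changes with 95% intervals (horizontal axis) of the 9 genes in germ-free minus conventional livers on the left and antibiotic-treated minus untreated livers on the right. Filled circles are the deposited signals and open squares the quantile normalized ones; Csad moves little between them, while Cdo1 and Mat1a move towards or past 0.

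On the deposited scale 7 of 9 genes had a log2 fold change above 0 in each comparison, with medians of 0.20 in germ-free and 0.27 in antibiotic-treated livers, beside 0.03 and 0.00 over all genes. The groups did not overlap for 5 of 9 genes in germ-free livers, beside 29.9% of all genes, of which 4 were higher (15.4% of all genes) and 1 lower (14.5%). They did not overlap for 4 of 9 in antibiotic-treated livers, beside 18.3% of all genes, and these were all higher (9.19%). Bright genes as a whole were also higher in antibiotic-treated livers. Of the 821 genes with a mean signal of at least 1000, 70.2% lay above 0 there, with a median of 0.11, and 54.0% did so in germ-free livers, with a median of 0.03. After quantile normalization these medians were -0.01 and 0.01, and those of the 9 genes 0.05 in antibiotic-treated and 0.06 in germ-free livers. Markers of hepatocytes, the cells that carry most of these enzymes, also lay higher. In antibiotic-treated livers 0 of 8 passed, but 7 of 8 (Alb, the albumin gene, among them) did not overlap and were higher, with a median of 0.36 on the deposited scale and 0.04 after quantile normalization. In germ-free livers 0 of 8 passed, 7 of 8 lay above 0, and 3 of 8 did not overlap and were higher. The median there was 0.19 on the deposited scale and 0.03 after quantile normalization. In bulk tissue, fewer cells of a type and less RNA per cell cannot be told apart.

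Some genes shared their animal of highest signal. Bhmt and both probe sets of Slc6a6 peaked in the same animal of each group, which was germ-free animal 4, conventional animal 8, antibiotic-treated animal 14 and untreated animal 3. Over the 12 arrays, with the mean of each strain subtracted, log2 values correlated at 0.91 between Cdo1 and Ahcy, at 0.89 between Cdo1 and Mat1a and at -0.83 between Csad and Bhmt. These are descriptions over 12 arrays that share scaling and include the group differences. By the same measure the genes most like Csad were Adamts12, a secreted protease (0.98), Nubp2, of iron-sulphur cluster assembly (0.96), and Pmvk, phosphomevalonate kinase of cholesterol synthesis (0.95). Their log2 fold changes in germ-free livers were -0.65, -0.56 and -1.07. Those most like Bhmt were Fgl1 (0.94), which codes for a protein secreted by hepatocytes, Met (0.91), the receptor of hepatocyte growth factor, and Gsap (0.90). Their log2 fold changes in germ-free livers were 0.22, 0.59 and 0.51. These values follow in part from the choice by likeness and are given with no test.

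Genes around the 9 members were read from 5 lists of neighbouring pathways, also chosen with earlier results of these data known. Beside the counts below, 6.44% of all genes rose and 6.74% fell in germ-free livers (599 and 627, or 379 and 1122 after median centring). In the methionine cycle and salvage list 3 of 14 tested genes fell and 11 did not pass, with none that rose and a median log2 value of -0.12. Mat2a, the methionine adenosyltransferase gene named above, fell to 206 ± 24.8 in germ-free livers, against 379 ± 68.4 in conventional livers (log2 -0.82 ± 0.15, adjusted p = 0.00284). Its second tested probe set gave -0.23 (adjusted p = 0.387). Ahcyl1, a relative of Ahcy that binds the IP3 receptor, changed by -0.49 ± 0.10 from its brightest probe set. In limma's fit of every probe set, 2 others gave -0.09 (adjusted p = 0.719) and 0.68 (adjusted p = 0.0161). The last of these passed in the opposite direction. The mean of its probe sets gave 0.04, so the direction of Ahcyl1 is not settled. Mri1, of methionine salvage, changed by -0.34 ± 0.10 (adjusted p = 0.0465), a call lost in 17 of 25 alternatives, among them each omission of 1 of the 12 animals (0.052 to 0.185). Bhmt2, a relative of Bhmt by name, stood at 4324 ± 382 in germ-free livers, against 3659 ± 644 in conventional livers (log2 0.25 ± 0.12, adjusted p = 0.189).

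In the list of folate, choline and betaine one-carbon genes 4 of 15 rose, 3 fell and 8 did not pass (median 0.21). Dmgdh, the dehydrogenase of dimethylglycine, which is the product of the Bhmt reaction, rose to 1797 ± 194 in germ-free livers, against 985 ± 109 in conventional livers (log2 0.86 ± 0.11, adjusted p = 0.000235). Gldc, of glycine cleavage, rose to 445 ± 123, against 173 ± 33.3 (log2 1.27 ± 0.20, adjusted p = 0.00106), and its second tested probe set gave 1.02. Aldh1l1, a folate dehydrogenase, fell to 968 ± 93.3, against 1798 ± 143 (log2 -0.88 ± 0.11, adjusted p = 0.00024). Pemt, which makes phosphatidylcholine with S-adenosylmethionine, fell to 704 ± 84.5, against 1200 ± 97.9 (log2 -0.76 ± 0.14, adjusted p = 0.00284).

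Of 11 tested genes of cysteine and sulphide oxidation 1 rose, 0 fell and 10 did not pass (median 0.06). The gene that rose was Ethe1, the mitochondrial persulphide dioxygenase, with 1173 ± 132 in germ-free livers, against 500.3 ± 50.2 in conventional livers (log2 1.20 ± 0.13, adjusted p = 9.55e-05). Of 10 genes of glutathione synthesis and turnover 1 fell, 0 rose and 9 did not pass (median -0.31). This was Oplah, 5-oxoprolinase (log2 -0.76 ± 0.15, adjusted p = 0.00534; 0.0617 with the actin ratio as a covariate). Of 3 genes around the coupling of bile acids to taurine 1 fell, 0 rose and 2 did not pass (median -0.34). The gene that fell, Acot8, is a thioesterase and not the coupling enzyme (log2 -0.73 ± 0.14, adjusted p = 0.00426). Baat, which joins bile acids to taurine or glycine, stood at 5040 ± 90.4 in germ-free livers, against 4654 ± 280 in conventional livers (log2 0.12 ± 0.10, adjusted p = 0.49). In antibiotic-treated livers 0 genes of these 5 lists passed limma's test, and 8 of the 53 tested had an unadjusted p under 0.05, beside 10.4% of all genes. In germ-free livers 23 of the 53 did, beside 28.1% of all genes.

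**Figure D3:**
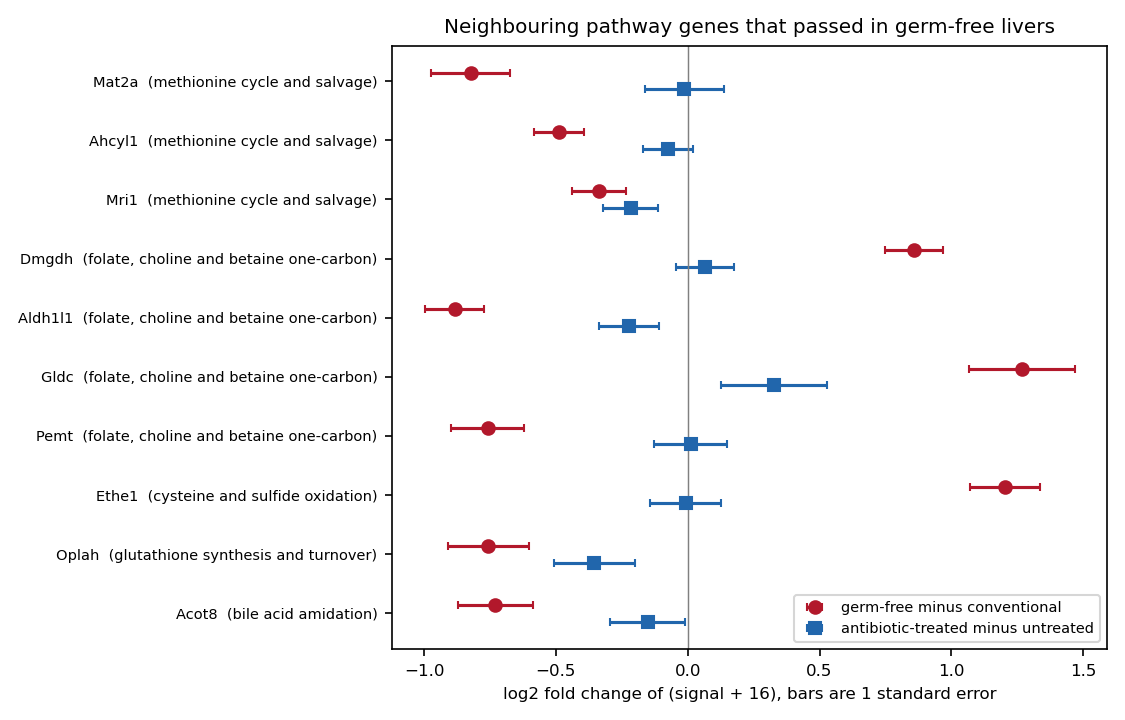
Log2 fold change with 1 SE (horizontal axis) of the 10 genes of neighbouring pathways that are named here and passed in germ-free livers, with the list of each in brackets. Red circles are germ-free minus conventional and blue squares antibiotic-treated minus untreated livers. The blue values lie nearer to 0 for each gene shown, which follows in part from choosing the genes by their germ-free result.

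Other properties of the arrays were also compared between the groups. RNA degradation raises the signal of the 3' end of a transcript over that of its 5' end. For beta-actin this ratio was 4.39 ± 0.76 in germ-free and 5.37 ± 0.84 in conventional livers, and 2.73 ± 0.13 in antibiotic-treated and 2.55 ± 0.12 in untreated livers (SD, n = 3 each). Exact permutation tests, two-sided, gave p = 0.2 for each pair, where the smallest possible p is 0.1. The groups overlapped in each pair, whereas every Sprague Dawley array (3.62 to 6.17) lay above every Han Wistar array (2.47 to 2.87). Strain and experiment cannot be told apart in that gap. With this ratio as a covariate Csad still passed and Bhmt did not. Of 8 tested endothelial markers 5 rose in germ-free livers, where their summed signal was 1357 to 1879, against 735 to 928 in conventional livers. In antibiotic-treated livers 0 of these endothelial markers passed and 7 of 8 lay above 0 (median 0.19). Of 8 macrophage markers 1 fell (Clec4f), with sums of 2139 to 2727 in germ-free and 2525 to 3772 in conventional livers. The groups did not overlap for 3 of 8, which were lower in germ-free livers, beside 14.5% of all genes. In antibiotic-treated livers 0 of these 8 macrophage markers passed, but 7 lay above 0 (median 0.45). There 3 did not overlap and were higher (9.19% of all genes), and 1 did not overlap and was lower. Clec4f was at 0.56 there, and its difference between the comparisons passed limma's test (-1.20, adjusted p = 0.0116). Of 8 lymphocyte markers on the array 7 lay under the filter. Of 11 core clock genes 5 rose and 2 fell in germ-free livers, and 0 rose or fell in antibiotic-treated livers. The part of these cells and of clock time in the results above was not tested.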

How the data were processed

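Per the submitters' processing notes, the authors made the deposited signal intensities with MAS5; no version is stated there. All arrays had the same trimmed mean (100.0, with 2% removed at both ends), so the deposited intensity values were left unscaled. Of 31042 probe sets other than the 57 controls, 20826 carried 1 gene symbol in GEO's platform annotation. Current symbols came from the GRCr8 gene table by gene identifier (20758) or accession (2); 66 stayed as annotated.

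Testing was limited to probe sets whose mean signal reached the median (19.67), and the brightest probe set of each gene was used, which gave 9300 genes. limma 3.58.1 in R 4.3.3 fitted log2(signal + 16) to 4 group means over 12 arrays (lmFit, then eBayes with trend; 8 residual and 5.84 prior degrees of freedom). Contrasts were germ-free minus conventional, antibiotic-treated minus untreated, and their difference. Benjamini-Hochberg adjustment over the 9300 genes was applied to two-sided p-values. The labels name animals, so p-values measure the spread between animals. The number of arrays limits the precision, with a median SE of 0.144. The fit was tested on simulated data. The members and lists were chosen with earlier results of these data known. Always named were the 9 members, then up to 4 genes per list and comparison that passed, by smallest p, and the 3 genes most correlated with each member that passed. Bhmt2, Baat and the marker genes were named after their values were seen. Some listed genes were not analysed here. Alternatives were other offsets, filters, normalizations, variance models, array weights, probe set rules, the comparison's own 6 arrays, the actin ratio as a covariate and leaving out each animal. Protein sequences were not used here.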

Additional observations from a re-analysis of the deposited data

Results flagged for a closer look

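For 5 genes of the neighbouring pathways the germ-free and the antibiotic comparison differed by limma's test of the difference itself, over all 9300 genes. Strain and experiment cannot be told apart from that difference. Ethe1 differed by 1.21 ± 0.19 on the log2 scale (adjusted p = 0.00264), with 1.20 ± 0.13 in germ-free and -0.01 ± 0.13 in antibiotic-treated livers, and the test passed in 24 of 24 alternatives. Dmgdh differed by 0.79 ± 0.16 (adjusted p = 0.00892), with 0.86 and 0.07, and did not pass with the actin ratio as a covariate (0.0793). Aldh1l1 differed by -0.66 ± 0.16 (adjusted p = 0.0296), with -0.88 and -0.22, a call lost in 9 of 24 alternatives (adjusted p up to 0.0694). Pemt differed by -0.77 ± 0.20 (adjusted p = 0.0352), with -0.76 and 0.01, a call lost in 11 (up to 0.194). Mat2a differed by -0.81 ± 0.21 (adjusted p = 0.0392), with -0.82 and -0.01, a call lost in 13 (up to 0.127). The second tested probe set of Mat2a gave a difference of -0.25 in limma's fit of every probe set, which did not pass (adjusted p = 0.603).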

How the results depend on the processing

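In germ-free livers the count of members that passed was 2 and changed to 1 (Csad alone) with no filter, with quantile normalization, with median centring, without a variance trend, with the actin ratio as a covariate and with a robust prior; it was 1 to 2 without each animal in turn. In antibiotic-treated livers it was 0 in all 25 alternatives, and for the difference 0, or 0 to 1 without each animal. Signs changed for member values that had not passed and for Ahcyl1, which had. Quantile normalization gave -0.058 for Mat1a in germ-free and -0.084 for Cdo1 in antibiotic-treated livers, and for the difference 0.084 for Ahcy and 0.12 for Cdo1. Median centring gave -0.021 for Cth in germ-free livers. The mean of probe sets gave 0.035 for Ahcyl1 in germ-free livers. Leaving out 1 animal at a time gave -0.031 to 0.19 for Cth and -0.044 to 0.45 for Slc6a6 in germ-free livers, -0.059 to 0.19 for Cbs and -0.60 to 0.14 for Slc6a6 in antibiotic-treated livers, and -0.096 to 0.050 for Cdo1 in the difference. Median centring shifted the median of all genes by -0.11 in germ-free livers, where 379 genes rose and 1122 fell, and gave 192 and 382 for the difference (250 and 302 on the deposited scale). Over the whole table the germ-free count of 1226 genes was 606 with the actin covariate and 654 without germ-free animal 3. The fit of every probe set gave 1901, but this counts probe sets and not genes, and includes probe sets without a gene symbol. The antibiotic count of 2 ran from 0 to 15, and the count of 552 for the difference was 869 with array weights, 230 with the actin covariate, 296 without germ-free animal 3 and 313 without untreated animal 2. Among the members the brighter probe set of Slc6a6 had the widest intervals, and how far signal over background limits single genes was not tested. No paired analysis was possible because the groups compared share no animal numbers.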
